A study of Mus musculus with 20 samples.

Results

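The small proline-rich protein (Sprr) genes were followed through normal skin (NS), actinic keratosis (AK) and cutaneous squamous cell carcinoma (cSCC) of the mouse. The genes examined were 10 named symbols of the family, Sprr1a, Sprr1b, Sprr2a1, Sprr2b, Sprr2d, Sprr2e, Sprr2h, Sprr2i, Sprr3 and Sprr4, all of which were among the 22090 gene symbols of the count table. The table held 5 more symbols of the family, Sprr2a2, Sprr2a3, Sprr2f, Sprr2j-ps and Sprr2k, so the family took 15 symbols in all, of which 11 were Sprr2. RNA was sequenced from 20 pieces of back skin of female SKH-1 mice, a hairless strain, which were 7 months old when obtained and older when the skin was taken: 8 NS, 8 AK and 4 cSCC. Of 8 mice, 4 were exposed to ultraviolet radiation and 4 were not. By the study's account, each unexposed mouse gave a single NS piece, and each exposed mouse gave an NS piece, 2 AK lesions of different grade and a cSCC. The labels do not give the mouse, the exposure or the AK grade of a sample, so NS and AK were each treated as 1 group, and pieces of the same mouse were treated as independent, which can make p-values too small. The AK and cSCC groups therefore stand for 4 mice each, and the labels' wording on the frequency of exposure differs from the study's methods. Bulk RNA cannot tell fewer cells of a type from less RNA per cell.

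Sprr proteins are precursors of the cornified envelope, the protein shell that replaces the membrane of the outermost keratinocytes. Transglutaminases link them to loricrin and other proteins of the envelope. The Sprr genes lie side by side in the epidermal differentiation complex and are known to be induced in wounded, inflamed or irradiated epidermis.

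Sprr4, a member known from epidermis exposed to ultraviolet light, was lower in cSCC than in NS and in AK. Its mean level in CPM, the reads of a gene scaled to library size, was 191 ± 215 (SD, n = 8) for NS samples, 60.2 ± 22.4 (n = 8) for AK samples and 4.16 ± 4.61 (n = 4) for cSCC samples, and the cSCC samples lay below every sample of both other groups. These cSCC levels rested on 12 counts or fewer per library. The Sprr4 call against NS was lost in 2 of 11 other settings. These were the fit without cSCC 20 and 21 and limma voom (adjusted p = 0.396). The Sprr4 call against AK was kept in all 11. The Sprr2 genes ranged more widely over the pieces of NS than over those of AK. Their summed level spanned 627-fold in NS, 2.28-fold in AK and 13.5-fold in cSCC, and no difference of the sum between groups passed the test. From AK to cSCC, Sprr2a1 to Sprr2b at the start of the cluster had fold changes below 1, and none was called by edgeR. With all samples, Sprr2d to Sprr2k further along had fold changes above 1, of which those of Sprr2h and Sprr2k passed the test. Without cSCC 18, the log2 fold change was -0.62 for Sprr2d, 0.033 for Sprr2i and 0.26 for both Sprr2e and Sprr2f. Of the genes from Sprr2d to Sprr2k, only Sprr2d changed sign in that fit. The call of Sprr2h was lost in 3 and that of Sprr2k in 6 of 12 other settings, and both were lost without cSCC 21. Sprr1a stood at similar means in all 3 groups.

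In the GENCODE M21 annotation of GRCm38, the 15 genes occupied 285 kb of chromosome 3, chr3:92215799-92500493. Sprr2a1 to Sprr2k lay on the plus strand, and Sprr1b, Sprr3, Sprr1a and Sprr4 followed on the minus strand. Sprr4 (chr3:92500263-92500493) had 1 exon in this annotation. The gene models of Sprr2a1 (chr3:92215799-92221911) and Sprr2a2 (chr3:92215920-92256724) overlapped. The coding sequences of these 2 genes were identical over all 249 bases, and that of Sprr2a3 (chr3:92285417-92291405) was 98.8% identical to them. The coding sequences of Sprr2a1 and Sprr2a3 are shown because they set what the counts can resolve, with the bases at which they differ from each other in capitals.
Sprr2a1 coding sequence: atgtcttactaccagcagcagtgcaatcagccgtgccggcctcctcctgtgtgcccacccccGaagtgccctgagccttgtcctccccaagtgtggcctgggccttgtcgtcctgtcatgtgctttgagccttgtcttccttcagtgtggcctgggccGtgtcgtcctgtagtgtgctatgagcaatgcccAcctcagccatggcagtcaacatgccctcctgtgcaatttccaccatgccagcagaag
Sprr2a3 coding sequence: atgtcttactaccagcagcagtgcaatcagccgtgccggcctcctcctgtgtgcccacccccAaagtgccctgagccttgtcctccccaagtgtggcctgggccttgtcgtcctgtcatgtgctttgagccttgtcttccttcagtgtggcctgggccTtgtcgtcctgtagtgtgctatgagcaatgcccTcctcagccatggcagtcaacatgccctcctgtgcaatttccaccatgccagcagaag
Counted from 1 at the start codon, with the base of Sprr2a1 first, the differences were G63A, G159T and A192T. All 50-base stretches of the Sprr2a1 coding sequence occurred in another Sprr2 transcript, against 33.5% of those of Sprr2a3, 22.9% of Sprr2e, 22.3% of Sprr2i, 13.1% of Sprr2d and 0% of Sprr2b, Sprr2h, Sprr1a, Sprr1b, Sprr3 and Sprr4. Of the 100-base stretches, all of Sprr2a1 and Sprr2a2 and 0% of every other Sprr gene were shared. Counts of Sprr2a1 and Sprr2a2 are uncertain for this reason, because how reads with several matches were assigned is not given in the sources used here. The ratio of Sprr2a1 to Sprr2a2 counts was 0.844 to 1.19 in NS, 1.12 to 1.14 in AK and 1.06 to 1.15 in cSCC. The Sprr2 rows were also summed and tested as 1 gene.

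The 250 bases before the RefSeq start (build GRCm38.p6) were compared as well, since most Sprr2 genes varied together across samples. Matches to an AP-1 motif (TGANTCA), an octamer (ATGCAAAT) and a TATA box (TATAAA), searched on both strands except for the TATA box, are in capitals in 4 examples, which are a gene higher in cSCC than AK, a gene of the same block, an Sprr2a copy and the gene lower in cSCC.
Sprr2h chr3:92385435-92385684, plus strand: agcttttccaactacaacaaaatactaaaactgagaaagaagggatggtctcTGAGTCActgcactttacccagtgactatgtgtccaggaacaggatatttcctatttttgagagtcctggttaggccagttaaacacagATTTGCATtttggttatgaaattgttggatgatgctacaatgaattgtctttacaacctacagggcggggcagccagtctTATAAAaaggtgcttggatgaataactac
Sprr2d chr3:92338890-92339139, plus strand: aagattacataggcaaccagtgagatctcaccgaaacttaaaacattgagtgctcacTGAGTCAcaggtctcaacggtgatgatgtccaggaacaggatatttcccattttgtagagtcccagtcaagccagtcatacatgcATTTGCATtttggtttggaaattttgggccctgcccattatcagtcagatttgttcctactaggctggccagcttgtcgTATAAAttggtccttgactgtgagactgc
Sprr2a3 chr3:92285054-92285303, plus strand: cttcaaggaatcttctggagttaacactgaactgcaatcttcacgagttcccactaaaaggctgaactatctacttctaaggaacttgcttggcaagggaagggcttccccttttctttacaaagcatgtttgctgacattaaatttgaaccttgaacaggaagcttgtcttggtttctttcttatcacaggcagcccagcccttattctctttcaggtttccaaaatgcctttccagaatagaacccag
Sprr4 chr3:92500494-92500743, minus strand: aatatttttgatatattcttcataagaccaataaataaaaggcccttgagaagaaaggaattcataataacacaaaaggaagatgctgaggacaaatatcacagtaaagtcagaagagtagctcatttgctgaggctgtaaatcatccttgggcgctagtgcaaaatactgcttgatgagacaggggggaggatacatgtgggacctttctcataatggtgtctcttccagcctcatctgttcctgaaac
The AP-1 letters stood in 9 of 14 Sprr promoters of the table, of which 7 belonged to the named genes, and in 6.75% of 32851 promoters of all genes. The octamer stood in 7 of 14, of which 5 belonged to the named genes, against 1.60% of all promoters. The TATA box stood in 10 of 14, of which 8 belonged to the named genes, against 7.59%. Sprr2b, Sprr2d, Sprr2e, Sprr2f, Sprr2h, Sprr2i and Sprr2k shared all 3 in the same order, with an AP-1 match starting between -198 and -193 (and another at -182 in Sprr2k), the octamer between -112 and -108 and the TATA box at -29. In these windows the Sprr2a genes and Sprr4 held none of the 3. This depends on the annotated starts, and whether these windows hold the promoters of those genes was not tested. The Sprr4 model spans 231 bases against 228 of coding sequence, so its window ends next to the start codon. The Sprr2a3 model spans 5989 bases, against 1734 for Sprr2d. An Ets motif (AGGAAG) stood in 7 of 14 Sprr promoters and 29.5% of all. These are matches of letters and not sites of binding, and those in neighbouring genes of related sequence are not separate observations.

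The libraries held 775750 to 14055206 counts, and a level of 3 counts was 0.225 CPM in the deepest and 3.78 CPM in the library with the highest such floor (AK 12). Levels are CPM scaled with TMM factors over the 20 samples. Several cSCC libraries held RNA of other tissues. The summed level of 8 heart muscle genes was 50887 CPM in cSCC 21 and at most 148 CPM in every other library, that of 7 lung genes was 35985 CPM in cSCC 20, and that of 5 red blood cell genes was 921921 CPM in cSCC 18, whose TMM factor was 0.509. This low factor raises every CPM of cSCC 18, so 921921 CPM is not the share of its counts. The summed level of 10 keratinocyte genes was 11655 to 26606 CPM in NS, 15096 to 26051 CPM in AK, and 24080, 21306, 6952 and 5328 CPM in cSCC 18 to 21. All 10 keratinocyte genes had counts in each group. The cSCC comparisons of the Sprr genes were therefore also computed without cSCC 20 and 21, and without each sample in turn. This was not done for the genes of other lists.

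Sprr1a and Sprr1b, which encode longer envelope precursors, came first in the comparison. Sprr1a ranged from 128 CPM (NS 4) over a median of 1198 CPM to 3057 CPM (NS 8) in NS. In AK it ranged from 975 to 2258 CPM with a median of 1365 CPM, and in cSCC it was 2865, 915, 829 and 1014 CPM in replicates 18 to 21. All cSCC and AK values lay inside the NS range. Its log2 fold change was 0.12 (SE 0.43, adjusted p = 0.893) for AK vs. NS, 0.14 (SE 0.66, adjusted p = 0.911) for cSCC vs. NS and 0.06 (SE 0.36, adjusted p = 0.925) for cSCC vs. AK, by edgeR's quasi-likelihood test with Benjamini-Hochberg adjustment over all genes. Sprr1b ranged more widely in NS, from 9.15 CPM (NS 1) over a median of 332 CPM to 1930 CPM (NS 8). It was 626 to 1782 CPM in AK, with a median of 990 CPM, and 1593, 664, 412 and 436 CPM in cSCC 18 to 21. The groups overlapped, and the log2 fold change was 0.92 (SE 0.68, adjusted p = 0.415) for AK vs. NS, 0.55 (SE 0.96, adjusted p = 0.730) for cSCC vs. NS and -0.34 (SE 0.39, adjusted p = 0.556) for cSCC vs. AK. Without cSCC 18, the last value was -1.01 with an adjusted p of 0.0416. The ratio of Sprr1a to Sprr1b counts within a sample, which needs no scaling, was 1.14 to 2.07 in AK and 1.38 to 2.32 in cSCC. In NS it ran from 0.728 (NS 5) to 141 (NS 1), with 37.7 in NS 2.

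The Sprr2 genes encode short, closely related precursors, and their levels ranged widely in NS, from 44.1-fold for Sprr2h to 3249-fold for Sprr2b among the named genes. The sum ran from 37.7 CPM (NS 1) over a median of 2097 CPM to 23620 CPM (NS 7). In AK it ran from 10304 CPM (AK 11) over a median of 13738 CPM to 23512 CPM (AK 12). In cSCC it was 24392, 1804, 5626 and 1963 CPM in replicates 18 to 21. NS 1, 2, 4, 5 and 9 lay below all AK samples, and NS 6, 7 and 8 lay within or above the AK range. In CPM, cSCC 19, 20 and 21 lay below all AK samples and cSCC 18 above them. The place of cSCC 18 depended on the scaling. As a share of all counts its Sprr2 sum was 1.24%, inside the AK range of 1.10% to 2.15%, and cSCC 19, 20 and 21 stayed below that range. The SD on the log2(CPM + 1) scale was 3.57 for NS, 0.42 for AK and 1.75 for cSCC. As a share of all counts of the sample, the 15 Sprr rows took from 0.0561% (NS 4, 95% Wilson interval 0.0533% to 0.0591%) to 2.73% (NS 7, 2.72% to 2.74%) in NS, 1.36% to 2.53% in AK and 0.296% to 1.47% in cSCC. These intervals, like the floors above, cover counting error only.

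**Figure D1:**
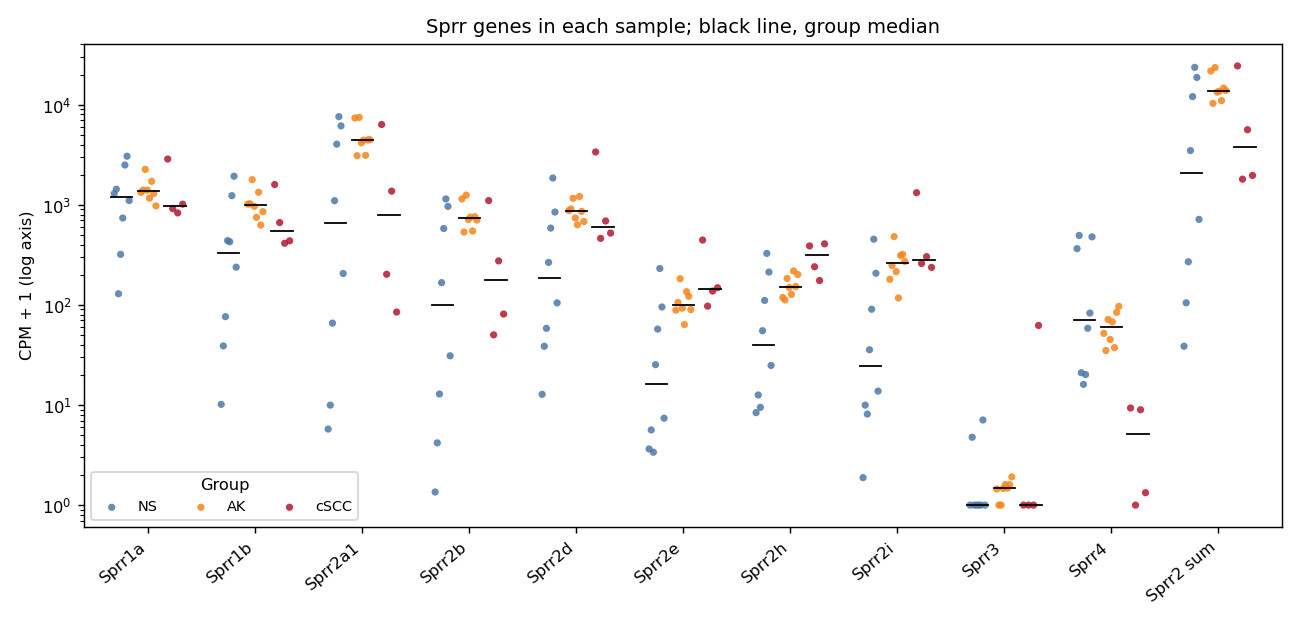
Level of each named Sprr gene and of the sum of all 11 Sprr2 rows in each sample, as CPM + 1 on a log axis, with 8 NS, 8 AK and 4 cSCC points per gene and a black line at the group median. The NS points of the Sprr2 genes spread over a far wider range than the AK points (627-fold against 2.28-fold for the sum), and the cSCC points of Sprr4 lie below all others.

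For AK vs. NS, 0 of the 9 members tested were called, where a gene was called if its fold change exceeded 1.5 or was less than 0.67 with an adjusted p under 0.05. Over all genes 4.64% of 11677 were called, and an unadjusted equal-variance test per gene on log2(CPM + 1) called 7 members and 12.4% of all genes. Sprr3 did not pass the filter on low counts in any of the 3 comparisons with all samples. An unadjusted p under 0.05 was reached by 1 member, Sprr4. The log2 fold change was above 0 for 8 of 9 members, with a median of 0.92 against -0.04 over all genes tested, and was 1.00 (SE 0.95, adjusted p = 0.536) for Sprr2a1, 1.14 (SE 0.90, adjusted p = 0.454) for Sprr2b, 1.03 (SE 0.70, adjusted p = 0.377) for Sprr2e and 1.39 (SE 0.77, adjusted p = 0.276) for Sprr2i. It was 0.91 (SE 0.68, adjusted p = 0.425) for Sprr2d and 0.73 (SE 0.61, adjusted p = 0.481) for Sprr2h. Of the other rows, Sprr2j-ps gave 2.03 (SE 0.73, adjusted p = 0.0980), Sprr2f 1.81 (SE 0.72, adjusted p = 0.128), Sprr2k 1.23, Sprr2a3 1.09 and Sprr2a2 1.03, and the first 2 of these passed the threshold when NS 7 was left out (adjusted p = 0.0385 and 0.0252). The log2 fold change of the Sprr2 sum was 1.04 (SE 0.87, adjusted p = 0.482). The outcome depended on the tool. DESeq2 called 0 members, with 8.98% of all genes called, whereas limma voom with sample quality weights, which called 8.93% of all genes, gave the sum a log2 fold change of 3.16 (adjusted p = 0.0462) and called 6 members, Sprr1b, Sprr2b, Sprr2d, Sprr2e, Sprr2h and Sprr2i. The edgeR fold compares fitted means on the count scale, to which the high NS samples contribute most, and the voom fold compares means on the log scale.

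For cSCC vs. NS, 1 of 9 members was called, Sprr4, where 19.3% of 12097 genes were called, 1414 higher and 926 lower in cSCC. With DESeq2 1 member was called (22.6% of all genes), with limma voom 0 (10.8%) and with an unadjusted equal-variance test 4 (21.8%). The Sprr2 members ranged in log2 fold change from -0.23 (SE 1.53, adjusted p = 0.935) for Sprr2a1 to 2.41 (SE 1.09, adjusted p = 0.135) for Sprr2i. Sprr2b gave 0.09 (SE 1.39), Sprr2d 1.46 (SE 1.01) and Sprr2e 2.00 (SE 0.99), with adjusted p of 0.970, 0.329 and 0.170. Without NS 7, the sample with the highest Sprr2 sum in NS, Sprr2e (2.98, adjusted p = 0.0404) and Sprr2i (3.42, adjusted p = 0.0402) passed the threshold. Sprr2h was 7.39 to 326 CPM in NS with a median of 39.0 CPM, and 388, 239, 174 and 406 CPM in cSCC 18 to 21, a log2 fold change of 1.73 (SE 0.85, adjusted p = 0.164). The Sprr2 sum gave 0.23 (SE 1.33, adjusted p = 0.924), and -1.18 (adjusted p = 0.606) without cSCC 18. Of the other 5 rows, Sprr2f gave 2.83 (SE 0.99, adjusted p = 0.0578) and passed in 4 of 11 other settings, among them DESeq2 (adjusted p = 0.0170), and without NS 7 (adjusted p = 0.0164). Sprr2k gave 2.53 (SE 1.02, adjusted p = 0.0950) and passed in 3 of 11, among them limma voom (adjusted p = 0.0326). Sprr2j-ps was called higher at 3.08 (SE 0.98, adjusted p = 0.0406), and the call was lost without any of 9 of the 12 samples, with adjusted p up to 0.0942. Sprr2j-ps carries the suffix of a pseudogene in its symbol, and its counts were 0 to 235 in NS and 50 to 527 in cSCC.

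For cSCC vs. AK, 2 of 9 members were called, Sprr2h higher and Sprr4 lower, where 24.4% of 12032 genes were called. Over all genes 1931 were called higher and 1004 lower in cSCC. With DESeq2 3 members were called (28.0% of all genes), with limma voom 3, all lower in cSCC (10.6%), and with an unadjusted equal-variance test 4 (23.9%). Sprr2h was 111 to 217 CPM in AK with a median of 150 CPM, so 3 of 4 cSCC samples lay above all AK samples and the groups overlapped through cSCC 20. Its log2 fold change was 1.07 (SE 0.27, adjusted p = 0.0128). It was 0.78 (adjusted p = 0.0563) without cSCC 21, 0.93 (adjusted p = 0.331) with all 20 samples in 1 fit and 0.72 (adjusted p = 0.0708) with scaling by library size alone. Sprr2e, at 444, 96.2, 137 and 148 CPM in cSCC 18 to 21 and 62.7 to 182 CPM in AK, had a log2 fold change of 1.01 (SE 0.36, adjusted p = 0.0524). Sprr2i gave 1.06 (SE 0.44, adjusted p = 0.0914) and Sprr2d 0.59 (SE 0.45, adjusted p = 0.359). These values were lower without cSCC 18, where Sprr2i gave 0.033, Sprr2e 0.26, Sprr2f 0.26 and Sprr2d -0.62. Sprr2e passed the threshold without cSCC 19 (adjusted p = 0.0244) or cSCC 20 (adjusted p = 0.0434), and Sprr2f without cSCC 19 (adjusted p = 0.0407). Among the other rows, Sprr2k was called higher at 1.38 (SE 0.41, adjusted p = 0.0266), with 11.4 to 69.3 CPM in cSCC and 8.89 to 29.0 CPM in AK. Its adjusted p was 0.188 without cSCC 21, 0.0639 without cSCC 18 and 0.0659 without AK 14, and the call was lost in 6 of 12 other settings, with adjusted p up to 0.28 with all 20 samples in 1 fit. Sprr2f gave 1.05 (SE 0.45, adjusted p = 0.103) and Sprr2j-ps 1.08 (SE 0.50, adjusted p = 0.123).

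The Sprr2 genes nearest the start of the cluster had log2 fold changes below 0, and none of them was called by edgeR. Sprr2a1 was 6340, 201, 1369 and 83.9 CPM in cSCC 18 to 21 and 3093 to 7475 CPM in AK, with a log2 fold change of -1.22 (SE 0.82, adjusted p = 0.292). Sprr2b was 1102, 49.2, 274 and 80.1 CPM in cSCC 18 to 21 and 533 to 1247 CPM in AK, with -1.02 (SE 0.63, adjusted p = 0.244). In both genes cSCC 18 lay inside the AK range and the other 3 cSCC samples below it. The Sprr2 sum gave -0.85 (SE 0.67, adjusted p = 0.375). Without cSCC 18 it gave -2.24 (adjusted p = 0.00595), Sprr2a1 -3.08 (adjusted p = 0.00909) and Sprr2b -2.53 (adjusted p = 0.00346). The cSCC 18 library is the one of which the red blood cell genes took the most, and the part of this in the result was not tested.

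**Figure D2:**
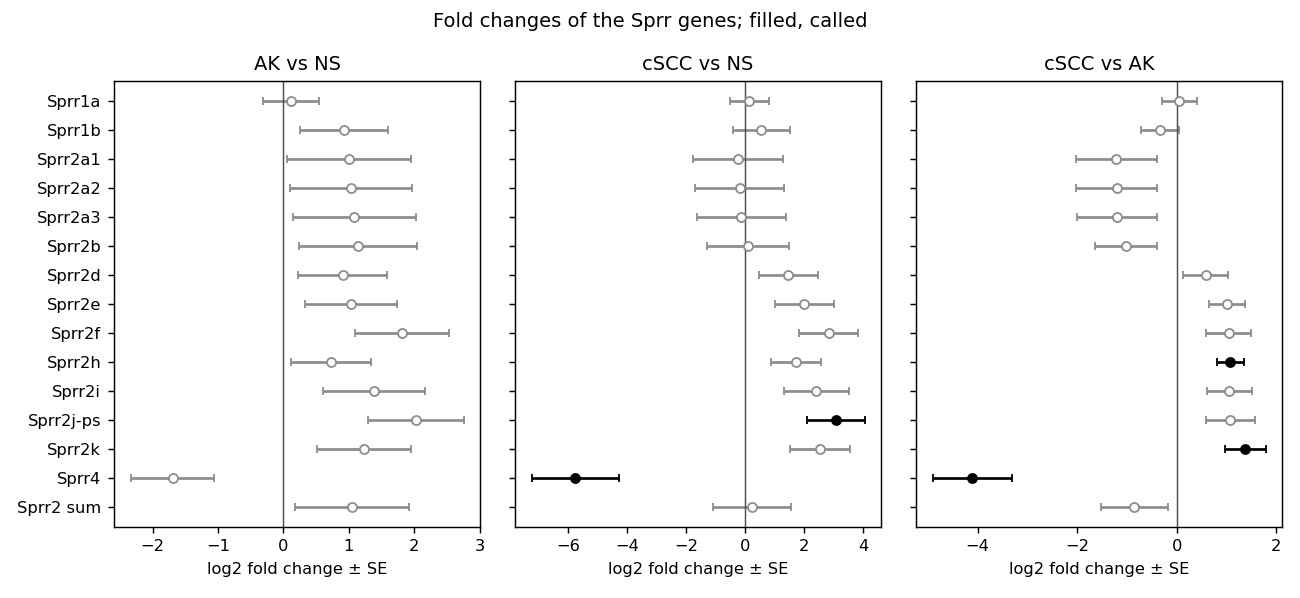
Log2 fold change with its SE (horizontal bar) from edgeR's quasi-likelihood test for every Sprr row that passed the filter and for the Sprr2 sum, in a panel per comparison. Filled points were called and open points were not. From AK to cSCC, Sprr2a1 to Sprr2b lie below 0 and Sprr2d to Sprr2k above 0, and with library size alone as scaling Sprr2d lies at -0.015, and without cSCC 18 at -0.62.

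The composition of the Sprr2 counts was also compared within samples, which needs no scaling. The counts of Sprr2a1, Sprr2a2 and Sprr2a3 together, divided by those of Sprr2d to Sprr2k, gave a ratio of 3.84 (AK 15) to 14.1 (AK 10) in AK, with a median of 8.17. In cSCC the ratio was 2.63, 0.458, 2.30 and 0.133 in replicates 18 to 21, all below every AK sample. In NS it ran from 0.375 (NS 2) to 11.9 (NS 6) and overlapped both groups, with NS 1 (0.536) and NS 2 inside the cSCC range. This ratio was chosen after its values were seen and is given as a description. Sprr2h, whose coding sequence has no 50-base stretch in common with another gene of the family, made up 0.542% to 1.98% of the Sprr2 counts in AK and 1.59% to 20.7% in cSCC, with cSCC 18 inside the AK range. In NS this share was 0.912% (NS 6) to 19.6% (NS 1) and overlapped both groups. The Sprr2 sum relative to Sprr1a counts was 6.41 to 16.3 in AK, 1.94 to 8.52 in cSCC and 0.0291 to 16.4 in NS.

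**Figure D3:**
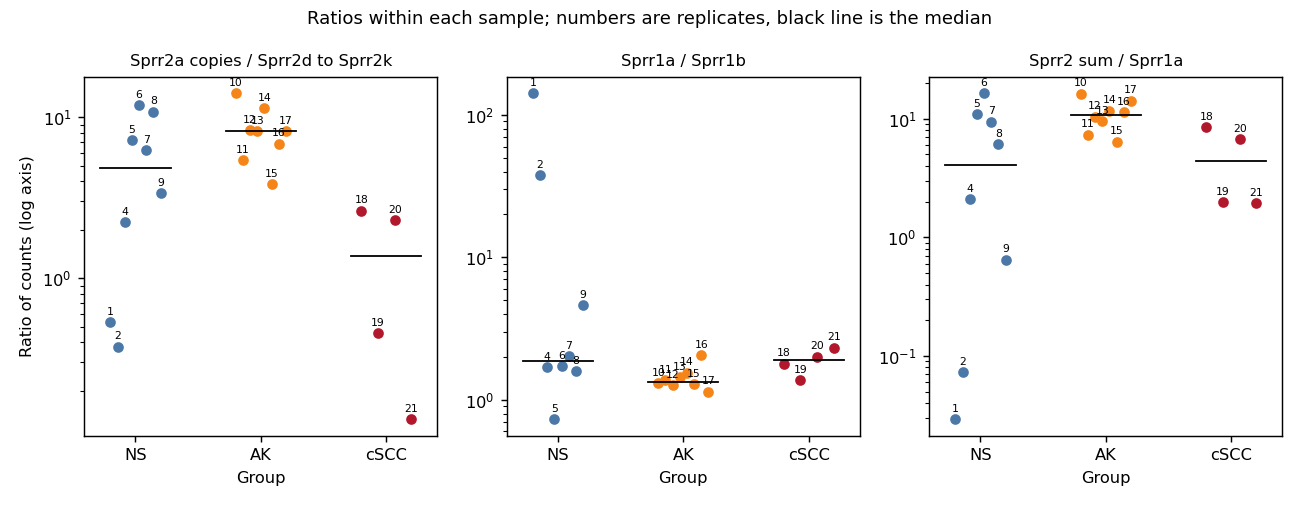
Ratios of counts within each sample on log axes, for the Sprr2a copies over Sprr2d to Sprr2k, Sprr1a over Sprr1b, and the Sprr2 sum over Sprr1a, with replicate numbers beside the points and a black line at the group median. In the first panel the 4 cSCC samples (0.133 to 2.63) lie below the 8 AK samples (3.84 to 14.1), and in the second NS 1 and NS 2 lie far above all others.

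Sprr4 is the last gene of the cluster. In NS it ran from 15.1 CPM (NS 5) over a median of 69.7 CPM to 493 CPM (NS 2). In AK it ran from 34.0 CPM (AK 11) over a median of 58.8 CPM to 95.5 CPM (AK 17). In cSCC it was 8.34, 0, 7.96 and 0.331 CPM in replicates 18 to 21, from 12, 0, 7 and 2 counts, and a count of 0 in cSCC 19 allowed up to 1.32 CPM. The 4 cSCC samples lay below all NS and all AK samples, which was so for 1 of the 9 members tested, Sprr4. The groups did not overlap, in either direction, for 8.43% of all genes in cSCC vs. NS and for 10.2% in cSCC vs. AK. The log2 fold change was -5.77 (SE 1.47, adjusted p = 0.0161) for cSCC vs. NS and -4.11 (SE 0.80, adjusted p = 0.00405) for cSCC vs. AK. For cSCC vs. AK the adjusted p stayed between 0.00143 and 0.00949 when any single sample was left out. For cSCC vs. NS it was 0.0164 to 0.0378 without any single sample, but 0.0763 (log2 fold change -5.66) without cSCC 20 and 21 and 0.396 (-5.67) with limma voom.

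The summed level of keratinocyte genes differed between the cSCC libraries, so Sprr4 was also set against the basal keratin genes Krt5 and Krt14 of the same sample. Per 1000 counts of Krt5 plus Krt14 there were 0.513, 0, 1.67 and 0.0907 counts of Sprr4 in cSCC 18 to 21. In AK there were 2.87 to 10.5, and in NS 1.71 (NS 6) to 115 (NS 2), so the cSCC samples again lay below all others, with cSCC 20 close to NS 6. Measured the same way, Sprr2h was 23.8, 14.4, 36.5 and 111 in cSCC 18 to 21, 11.3 to 19.1 in AK and 1.34 to 32.0 in NS.

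For AK vs. NS, Sprr4 had a log2 fold change of -1.70 (SE 0.64, unadjusted p = 0.0158, adjusted p = 0.114), which was not called. The NS levels of NS 1, 2 and 9 were 364, 493 and 478 CPM, above every AK sample, while those of NS 4, 5 and 6 were below every AK sample, the lowest being NS 5 at 15.1 CPM. NS 1, 2 and 9 were also low in the Sprr2 sum (37.7, 104 and 714 CPM) and Sprr1b (9.15, 37.9 and 237 CPM), yet their Sprr1a was 1295, 1432 and 1102 CPM. These libraries also stood apart in marker genes. Their summed keratinocyte genes were 12561, 11655 and 15284 CPM, against 19479 to 26606 CPM in the other 5 NS samples. Their summed fibroblast genes were 7057, 8458 and 5335 CPM, against 1108 to 3302 CPM, and their adipocyte genes 355, 568 and 396 CPM, against 237 CPM at the most. The part of this in the Sprr levels was not tested. NS 4 differed from them, with 269 CPM of the Sprr2 sum and low Sprr1a (128 CPM) and Sprr4.

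**Figure D4:**
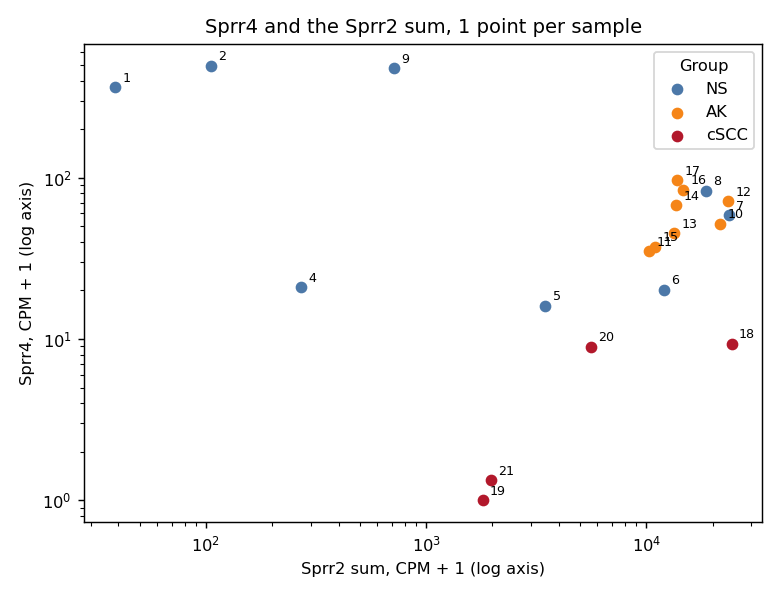
Level of Sprr4 against the Sprr2 sum, each as CPM + 1 on a log axis, with a point per sample and its replicate number. AK samples form a tight group, NS 1, 2 and 9 combine 364 to 493 CPM of Sprr4 with 37.7 to 714 CPM of the Sprr2 sum, and the 4 cSCC samples lie lowest in Sprr4.

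Sprr3, a precursor best known from the lining of the mouth and oesophagus, was near the floor in skin. It had 0 counts in 6 of 8 NS, 2 of 8 AK and 3 of 4 cSCC libraries, and at most 20 counts (6.09 CPM, NS 8) in NS and 6 counts in AK. Only cSCC 21 stood apart, with 371 counts or 61.4 CPM, and this was the library with the heart muscle genes. A count of 0 allowed up to 3.41 CPM in cSCC 20, 2.08 CPM in cSCC 18 and 1.32 CPM in cSCC 19.

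Across the 20 samples, with the group means removed, the members varied in blocks. Pearson's r of log2(CPM + 1) was 0.83 to 0.99 among the Sprr2 members and 0.87 to 0.94 between them and Sprr1b. It was 0.30 to 0.55 between Sprr1a and the Sprr2 members, 0.35 between Sprr1a and Sprr1b, and 0.49 between Sprr1a and Sprr4. Sprr4 gave -0.34 to -0.26 with the Sprr2 members. These values compare genes measured in the same 20 libraries, some of them from the same mouse, and NS contributes most of the spread. The part of shared reads in the r among the Sprr2 genes was not tested.

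**Figure D5:**
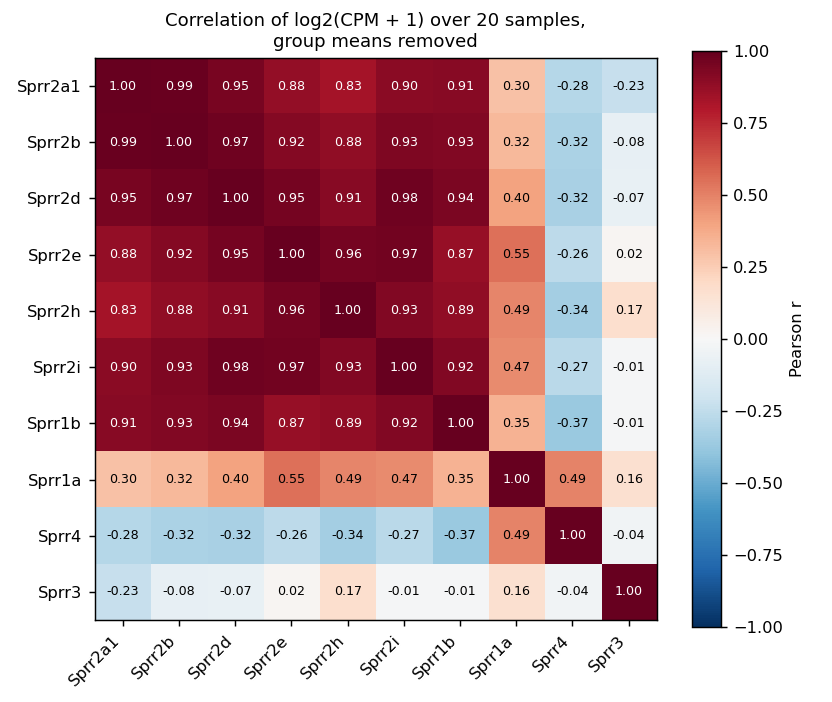
Pearson's r between the 10 named Sprr genes over 20 samples, on log2(CPM + 1) with group means removed, as a coloured matrix with the value in each cell. The Sprr2 genes and Sprr1b form a block of 0.83 to 0.99, with Sprr1a, Sprr4 and Sprr3 outside it.

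Of 8968 other genes with a mean of at least 10 CPM, those most like the Sprr2 sum by this measure were Stfa2, a stefin that inhibits cysteine proteases (r = 0.97), Rptn, the envelope precursor repetin (0.96), and 2610528A11Rik (0.95). Those most like Sprr1b were Rptn (0.94), the stress keratin gene Krt16 (0.94) and Stfa2 (0.93). Among the genes most like Sprr1a were Gm10094 (0.86) and Degs2, an enzyme of ceramide synthesis (0.85). Among those most like Sprr4 were the glutathione transferase gene Mgst1 (0.87) and the chemokine gene Ccl20 (0.86). The leading 3 were also taken with a smaller constant added before the log, and in NS and AK samples only. For Sprr4 1 of the leading 3 stayed in either case, and the r of Ccl20 was 0.73 with the smaller constant. For Sprr1a, Sprr1b and the Sprr2 sum 1 to 3 of the leading 3 stayed. For Sprr3 the leading genes were Got1 (0.89), Mgst3 (0.89) and the cardiac troponin gene Tnni3 (0.89), which rested on cSCC 21, since in the 16 NS and AK samples their r was 0.60, 0.70 and 0.56.

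Other genes of the envelope pathway showed where the Sprr genes stood. The counts of called genes in this and the following lists are to be read beside the shares over all genes. These were 4.64% for AK vs. NS, 19.3% for cSCC vs. NS and 24.4% for cSCC vs. AK. Of 13 cornified envelope protein genes tested, 3 were lower in AK than NS, led by Lor, the main envelope protein loricrin (log2 fold change -1.71), Flg2 (-2.12) and Crct1 (-0.70), and 0 were higher. In cSCC vs. NS 7 of 13 were lower, led by Lor (-6.35), Ppl, which encodes periplakin (-2.49), and Flg2 (-7.32), and 6 of 13 were lower in cSCC vs. AK, again led by Lor (-4.65), Flg2 (-5.25) and Ppl (-2.03). The median over this list was -0.46, -1.58 and -1.08 in the 3 comparisons, against -0.04, 0.14 and 0.17 over all genes. Rptn, which tracked the Sprr2 sum, was also lower in cSCC than AK (-2.88, SE 0.79, adjusted p = 0.0181).

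The late cornified envelope genes, a neighbouring family, divided. Of 21 tested, 5 were lower in AK than NS, led by Lce1m (-2.37), Lce1a2 (-1.19) and Lce1l (-1.27). In cSCC 15 were lower than in NS and 15 lower than in AK, all of them Lce1 genes and Lce6a. By edgeR 0 of the 6 Lce3 genes were called in any comparison, and their smallest unadjusted p was 0.0520 (Lce3a, AK vs. NS, log2 fold change 1.62). Lce1a1 had the smallest adjusted p in both, at -5.31 (SE 0.59, adjusted p = 3.23e-04) vs. NS and -4.15 (SE 0.47, adjusted p = 8.56e-04) vs. AK. The Sprr2 genes from Sprr2d to Sprr2k had log2 fold changes above 0 in both cSCC comparisons by edgeR with all samples. For Sprr2d vs. AK the value was -0.015 with library size alone, -0.066 by the equal-variance test and -0.62 without cSCC 18.

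Among the transglutaminases, 0 of 4 tested were called by edgeR in AK vs. NS, with a smallest unadjusted p of 0.199 (Tgm2). Tgm2, the tissue form, was higher in cSCC than NS (3.14, SE 0.68, adjusted p = 0.00777) and AK (3.80, SE 0.69, adjusted p = 0.00296), and Tgm5 was lower in cSCC than AK (-1.63). The level of Tgm2 spread widely in cSCC, from 6.95 to 167 CPM. It was 2.25 to 12.8 CPM in NS and 0.914 to 7.19 CPM in AK, so the groups overlapped. Tgm2 was not compared without the cSCC libraries that held heart or lung genes. Tgm1, which links Sprr proteins in the epidermis, had -0.29 for AK vs. NS (adjusted p = 0.465) and -0.39 for cSCC vs. NS (adjusted p = 0.546). Of the 4 stress keratin genes Krt6a, Krt6b, Krt16 and Krt17, 0 were called in the 3 comparisons, and the smallest adjusted p was 0.0506 (Krt17, cSCC vs. AK, 0.92). At an unadjusted p under 0.05 stood Krt6a in AK vs. NS and cSCC vs. NS, and Krt17 in cSCC vs. AK. Of the layer keratin genes 2 of 7 were lower in AK than NS (Krt77 and Krt2), 4 of 7 were lower in cSCC vs. NS, led by Krt77 (-8.67), Krt10 (-4.04) and Krt1 (-3.46), and 2 of 6 were lower in cSCC vs. AK. Endothelial genes were higher in cSCC, 5 of 6 vs. NS and 6 of 6 vs. AK, with a summed level of 29.9 to 104 CPM in NS and 32.6 to 94.1 CPM in AK. In cSCC 18 to 21 it was 108, 104, 191 and 519 CPM. The highest values were those of cSCC 20, which held the lung genes, and cSCC 21, which held the heart muscle genes. The part of those tissues in the endothelial level was not tested.

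Genes of transcription factors known to act on Sprr promoters were called in both directions. Of 15 tested, 1 was higher in AK than NS (Ets1, 0.91, SE 0.20, adjusted p = 0.0200) and 0 were lower. Of 16 tested in cSCC vs. NS, 5 were higher and 4 lower, led by Grhl1, a grainyhead factor of epidermal differentiation (-2.51), Pou2f3, an octamer-binding factor (-3.82), and Junb, an AP-1 subunit (1.46). In cSCC vs. AK 3 were higher and 6 lower, led by Grhl1 (-2.28), Fosl2, another AP-1 subunit (-1.67), and Junb (1.64). Pou2f3 was 59.7 ± 28.6 CPM (SD, n = 8) in NS, 33.0 ± 11.4 CPM (n = 8) in AK and 4.69 ± 4.47 CPM (n = 4) in cSCC.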

How the data were processed

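RNA-seq of 8 NS, 8 AK and 4 cSCC samples was examined. The authors deposited raw counts per gene symbol, without normalization. The submitters' processing notes name Trimmomatic 0.36, HISAT2 2.0.5, featureCounts 1.5.2 and the builds mm9 and hg19, while the study's methods name GRCm38 and StringTie. Strand and the treatment of reads with several matches are not given in the sources used here. Groups came from the labels. The labels do not say which pieces came from separate mice, so p-values measure the spread between samples. Replicates were compared by chi-square for duplicated libraries, and the 62 pairs gave at least 11.3 per degree of freedom.

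CPM used TMM factors over the 20 samples (edgeR 4.0.16, R 4.3.3). Pairs of groups were compared on their own samples with edgeR's quasi-likelihood test after filterByExpr, with Benjamini-Hochberg adjustment over all genes kept. SE is the absolute log2 fold change divided by the square root of F. The Sprr2 sum replaced its 11 rows by 1 row in the same fit. The scripts were tested on simulated data. Of genes given a log2 fold change of 2 there, 91.5% were called in AK vs. NS, 42.3% in cSCC vs. NS and 59.2% in cSCC vs. AK. A gene that was not called is therefore not shown to be unchanged. Alternatives were DESeq2 1.42.0, limma 3.58.1 voom with sample quality weights, other scalings and filters, no fold change limit, all 20 samples in 1 fit, an unadjusted equal-variance test per gene on log2(CPM + 1), leaving out 27 genes of blood, heart, lung and muscle, and leaving out samples. Summing the Sprr2a copies alone was added after seeing the data. Python 3.11.15, numpy 2.4.6, pandas 2.3.3, scipy 1.17.1 and Biopython 1.88 were used. Coding sequences and coordinates are from GENCODE M21 (GRCm38), and promoters from RefSeq (GRCm38.p6), where 14 of 15 Sprr symbols matched.

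The members and gene lists were chosen with earlier results of these data known. All members and other Sprr rows were named. From each pathway list and comparison at most 3 called genes with the smallest adjusted p were named, and for 4 members and the Sprr2 sum the 3 genes with the highest correlation, some of which are not reported here. Krt16, Krt17, Krt6a, Tgm1, Lce3a and Pou2f3 in further places were named after their values were seen.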

Additional observations from a re-analysis of the deposited data

Results flagged for a closer look

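In 33 groups of a gene's values (the 10 named genes and the Sprr2 sum in NS, AK and cSCC), 9 samples lay apart from the rest of their group, by a gap to the nearest sample above the critical value of Dixon's test. For normally distributed values chance sets apart about 1 in 20 groups. The test was run on CPM and not on the log scale, and values spanned up to 3249-fold within a group (Sprr2b in NS), so its chance rate here is not known. The genes also share samples and reads, so these are not 9 separate observations.

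In cSCC, replicate 18 was highest in Sprr2d (3371 CPM), Sprr2e (444 CPM), Sprr2i (1320.4 CPM), Sprr1a (2865 CPM) and the Sprr2 sum (24392 CPM). This library also held the highest summed level of red blood cell genes, 921921 CPM, and the part of that in these levels was not tested. In NS, replicate 7 was highest in Sprr2d (1852 CPM), Sprr2e (230 CPM) and Sprr2i (453 CPM). In cSCC, replicate 21 was highest in Sprr3 (61.4 CPM), where the other 3 cSCC samples were at 0. The summed level of heart muscle genes in that library was 50887 CPM, and its part in the Sprr3 level was not tested.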

How the results depend on the processing

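No paired analysis was possible because no replicate number occurs in more than 1 group and the labels do not name the mouse of a sample. Depth limits Sprr3 and Sprr4 in cSCC, where most libraries held 12 counts or fewer, and the small cSCC group makes single libraries decisive.

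For AK vs. NS, the count of members called, 0, became 6 with limma voom and 7 with the unadjusted equal-variance test, and was 0 without any single sample. The Sprr2 sum (1.04) became 3.16 (adjusted p = 0.0462) with voom and 3.37 (unadjusted p = 0.0191) with the equal-variance test, and was 0.85 to 1.59 without single samples. For cSCC vs. NS, the 1 member called became 0 with voom, 0 with at least 10 counts in every sample (a filter that Sprr4 does not pass), 0 without cSCC 20 and 21, 4 with the equal-variance test, and 1 to 3 without single samples, with 3 without NS 7. The Sprr2 sum (0.23) was -0.41 with library size alone, -0.19 with only the Sprr2a copies, 1.79 (adjusted p = 0.578) with voom, 1.76 with the equal-variance test, 0.84 without cSCC 20 and 21, and -1.18 to 0.79 without single samples. For cSCC vs. AK, library size alone also gave 2 members called, but both lower in cSCC and Sprr2h not among them. The count became 1 with all 20 samples in 1 fit, 4 with the equal-variance test, 4 without cSCC 20 and 21, and 1 to 5 without single samples, with 1 without cSCC 21 and 5 without cSCC 18. The Sprr2 sum (-0.85) was -1.71 (unadjusted p = 0.0223) with the equal-variance test, -0.24 without cSCC 20 and 21, and -2.24 to -0.45 without single samples. The share of all genes called was not recorded for the fits that left out samples, so their counts of members cannot be set against it. The cause of these differences was not tested.

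Signs of uncalled log2 fold changes turned as follows, and no turned value passed the threshold. For cSCC vs. NS, Sprr2a1, Sprr2a2 and Sprr2a3 were 1.34, 1.30 and 1.47 with voom, 0.90, 0.85 and 0.96 with the equal-variance test, and 0.46, 0.51 and 0.53 without cSCC 20 and 21. Without single samples they were -2.07 to 0.32, -2.06 to 0.34 and -1.87 to 0.37. With library size alone Sprr2b was -0.56 and Sprr1a -0.35, and without single samples Sprr2b was -1.38 to 0.64, Sprr1a -0.46 to 0.40 and Sprr1b -0.060 to 1.15. For cSCC vs. AK, Sprr1a was -0.40 with library size alone, -0.24 with voom, -0.10 with no filter, -0.055 with all 20 samples, -0.27 with the equal-variance test and -0.61 to 0.24 without single samples. Sprr2d was -0.015 with library size alone, -0.066 with the equal-variance test and -0.62 to 0.86 without single samples, and Sprr1b was 0.17 without cSCC 20 and 21. For AK vs. NS, Sprr1a was -0.056 to 0.40 without single samples.

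Library size alone moved the median of all genes from 0.14 to -0.17 for cSCC vs. NS and from 0.17 to -0.09 for cSCC vs. AK. Over all genes, 542 calls for AK vs. NS became 1049 with DESeq2, 1043 with voom, 2210 with the equal-variance test and 9 with all 20 samples in 1 fit. For cSCC vs. NS 2340 became 1308 with voom, 1526 with at least 10 counts and 3858 with the equal-variance test, and for cSCC vs. AK 2935 became 1270 with voom and 1731 with at least 10 counts.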
